A study of Mus musculus with 16 samples.

Results

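Genes of cholesterol synthesis and of its control by the sterol regulatory element binding proteins (SREBP) were followed in the colon of mouse pups born by C-section (CSD) or vaginally (VD). The set of 30 genes was chosen by name: 5 genes of the SREBP system, 7 genes of the mevalonate steps, 10 genes from squalene to cholesterol, 4 genes of sterol uptake and trafficking and 4 efflux transporters. Of these, 29 were measured among the 36711 genes on the arrays, and no spot carried the name Acat2. Colon RNA of 16 pups was hybridised at weaning on 1-colour Agilent arrays, 1 array per pup. All pups were RjOrl:SWISS mice, an outbred stock. The 8 CSD pups (4 females and 4 males) were taken by hysterectomy and raised by foster mothers that had just delivered vaginally, and they came from biological mothers 3 and 4 with 4 pups each. The 8 VD pups (2 females and 6 males) were also raised by another dam, since vaginally delivered litters were interchanged. They came from mother 5 (2 females and 3 males) and mother 6 (3 males). Each mother had pups of 1 delivery mode, so that delivery mode and litter of birth cannot be fully told apart, and all pups of mother 6 were male. Each of the 2 slides held 4 CSD and 4 VD pups.

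Cells make cholesterol from acetyl-CoA through mevalonate, isoprenoid intermediates, squalene and lanosterol. SREBP2, encoded by Srebf2, is the main transcription factor of this pathway, and SREBP1, encoded by Srebf1, acts mostly on fatty acid genes. Both are held in the endoplasmic reticulum by Scap and the Insig proteins when sterol is plentiful. When sterol is scarce, Scap carries them to the Golgi, where proteases release their active part. In the intestine, cholesterol also enters cells from the lumen and is returned to it by the ABCG5 and ABCG8 half-transporters, which work as a pair.

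Bases upstream of 4 members whose products stand at different places of the pathway are shown first, with the stretch between the divergent starts of Abcg5 and Abcg8, a pair whose values were unequal. They were taken from RefSeq (build GRCm38.p6), whose table held windows for 24 of the 30 genes. Capitals mark TCACNCCAC, a form of the sterol regulatory element, and CCAAT, the box bound by NF-Y, a factor that works beside SREBP, on either strand. The windows of Srebf2 (chr15:82147019-82147268, plus strand), Insig1 (chr5:28071162-28071411, plus strand), Hmgcs1 (chr13:119690101-119690350, plus strand) and Sc5d (chr9:42264301-42264550, minus strand) hold the 250 bases before the start of the gene, and the stretch between Abcg5 and Abcg8 (chr17:84683012-84683120, plus strand) holds 109 bases.
Srebf2: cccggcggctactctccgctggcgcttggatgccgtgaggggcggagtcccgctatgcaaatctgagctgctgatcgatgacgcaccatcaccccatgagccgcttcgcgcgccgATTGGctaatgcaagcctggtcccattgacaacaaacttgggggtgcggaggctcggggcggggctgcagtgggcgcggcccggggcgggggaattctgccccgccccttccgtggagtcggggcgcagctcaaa
Insig1: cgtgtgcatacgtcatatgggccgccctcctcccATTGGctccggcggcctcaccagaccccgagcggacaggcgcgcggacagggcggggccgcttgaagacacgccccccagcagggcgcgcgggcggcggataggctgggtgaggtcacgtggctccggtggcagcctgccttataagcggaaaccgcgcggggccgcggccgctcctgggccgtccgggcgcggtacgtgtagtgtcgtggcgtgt
Hmgcs1: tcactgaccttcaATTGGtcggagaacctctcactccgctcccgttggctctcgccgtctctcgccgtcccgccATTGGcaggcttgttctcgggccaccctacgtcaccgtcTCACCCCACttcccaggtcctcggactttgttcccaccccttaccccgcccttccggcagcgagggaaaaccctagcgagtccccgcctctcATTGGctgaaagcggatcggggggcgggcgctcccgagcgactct
Sc5d: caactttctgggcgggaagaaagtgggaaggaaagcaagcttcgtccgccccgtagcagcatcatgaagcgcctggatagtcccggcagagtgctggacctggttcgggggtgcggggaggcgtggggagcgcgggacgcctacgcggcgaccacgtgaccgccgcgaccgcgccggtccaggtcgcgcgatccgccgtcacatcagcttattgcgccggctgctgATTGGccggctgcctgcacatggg
Abcg5-Abcg8: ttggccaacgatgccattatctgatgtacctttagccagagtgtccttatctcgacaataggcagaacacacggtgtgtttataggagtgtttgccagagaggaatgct
Only the Hmgcs1 window among those of the members held TCACNCCAC, which 1.22% of all 27025 genes in the table had. At least 1 CCAAT lay in the windows of 20 of 24 members, against 37.5% of all genes, with 3 in that of Hmgcs1. The Abcg5 window and the stretch it shares with Abcg8 held neither. The Abcg8 window held CCAAT at 175 and 114 bases before the start of Abcg8, outside that stretch. GGGCGG, the GC box, was found for 20 of 24 members (35.4% of all genes) and CACGTG, an E-box, for 6 of 24 (6.86% of all genes). Motifs were counted on both strands and independently of each other where they overlapped. A match is a description of the letters, not of binding.

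Between CSD and VD pups, 24 of the 29 measured members were lower in CSD, against 48.3% of all genes. With only probes well above background in a whole group, 23 of 28 were lower, against 48.5% of all genes. The median log2 fold change (CSD minus VD, adjusted for sex) was -0.26 over the 29 members and 0.0029 over all genes. At an adjusted p under 0.05 (limma), 5 members were called and all 5 were lower in CSD: Srebf2, Insig1, Fdft1, Sc5d and Abcg5. All 5 calls were lost with the correlation between pups of a mother set at 0.1 in place of the estimated 0.015. At 0.1, 0.229% of all genes were called. With the estimated value, 1.25% of all genes were called, and 0.548% were called and lower. Without adjustment, 17 members were lower at p under 0.05, against 7.09% of all genes, and Insig2 was the 1 member higher at that level. Both CSD litter means lay below both VD litter means in 18 of 29 members, against 20.3% of all genes. No member had every CSD pup below every VD pup, which 0.2% of the 36493 genes measured on every array had. In RNA of whole tissue, fewer cells of a type and less RNA per cell cannot be told apart.

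**Figure D1:**
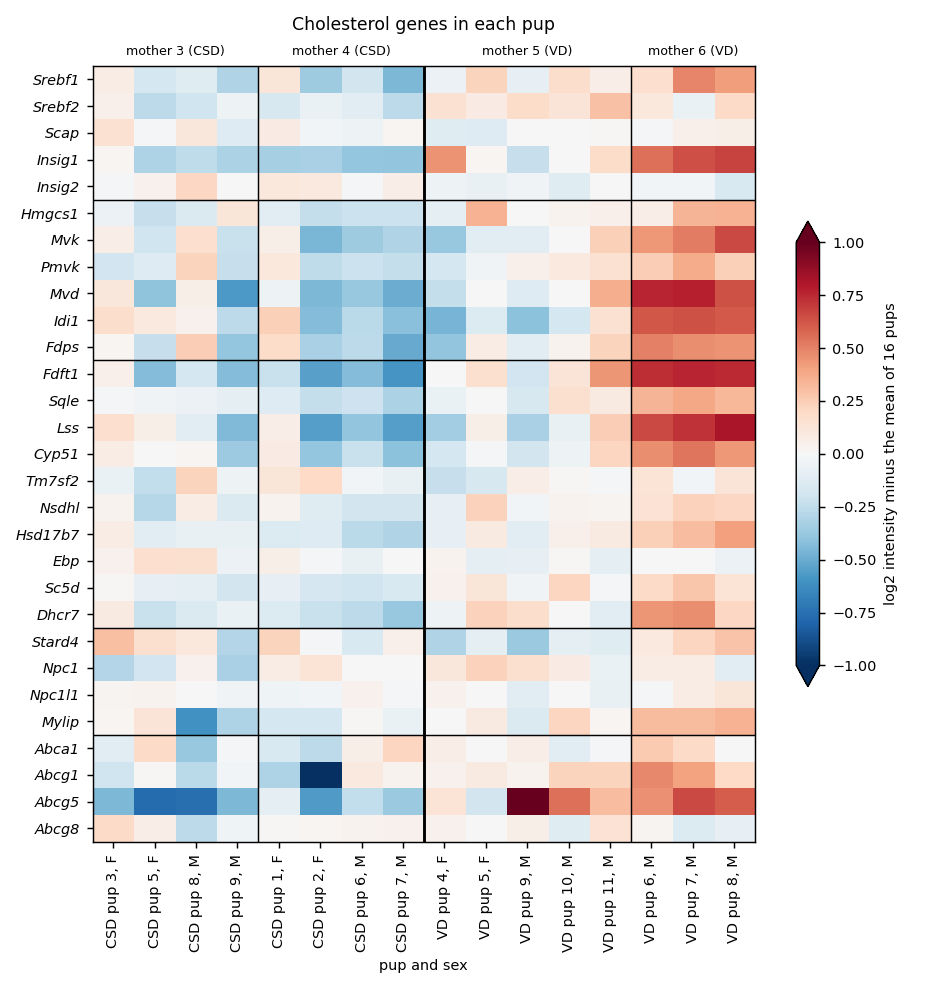
Heat map of the 29 measured members (rows, grouped by role) in the 16 pups (columns, by mother and sex), as log2 intensity minus the mean of the 16 pups. The 3 pups of mother 6 are high in most synthesis enzymes, and Abcg5 is below its mean in all 8 CSD pups.

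Among the genes of the SREBP system, the transcription factor Srebf2 and its brake Insig1 fell in CSD pups. Srebf2 had log2 intensities between 10.74 and 11.05 in CSD pups (median 10.86) and between 10.94 and 11.29 in VD pups (median 11.14). The log2 fold change, given here with its standard error (SE), was -0.27 ± 0.057 (SE, adjusted p = 0.0342), a level 17.2% lower in CSD. An exact two-sided permutation test over pups, which ignores litter and sex, gave p = 0.000466 for Srebf2. All CSD pups but CSD pup 3 and CSD pup 9 lay below every VD pup, and VD pup 7 was the only VD pup within the CSD range. The Srebf2 probes lay at chr15:82034765-82034824 and chr15:82035495-82035554 (mm9, plus strand) and gave -0.19 and -0.35. Insig1, which retains Scap in the endoplasmic reticulum and is itself induced by SREBP, was between 7.74 and 8.16 in CSD pups (median 7.82) and between 7.90 and 8.81 in VD pups (median 8.45). The log2 fold change of Insig1 was -0.58 ± 0.13 (SE, adjusted p = 0.0399), and the exact two-sided permutation test gave p = 0.000777. Every CSD pup except CSD pup 3 lay below the lowest VD pup. The spread was wider in VD, where the pups of mother 6 were the 3 highest. The Insig1 probe lay at chr5:28404246-28404305 (mm9, plus strand).

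Srebf1 was between 12.53 and 13.09 in CSD pups (median 12.79) and between 12.90 and 13.47 in VD pups (median 13.15). Its log2 fold change of -0.37 ± 0.10 (SE, adjusted p = 0.0929) was not called, and 6 of 8 CSD pups lay below the lowest VD pup. Insig2, the second Insig protein, went the other way. It was between 10.32 and 10.54 in CSD pups (median 10.39) and between 10.19 and 10.34 in VD pups (median 10.29), with a log2 fold change of 0.12 ± 0.038 (SE, adjusted p = 0.128). Insig2 was not called, although the exact two-sided permutation test over pups, which ignores litter and sex, gave p = 0.000777. The groups overlapped, and the 3 Insig2 probes differed in size (0.24, 0.093 and 0.037). Scap, the escort of both SREBPs, had a log2 fold change of 0.042 ± 0.046 (SE, adjusted p = 0.737) with a 95% confidence interval of -0.055 to 0.14.

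All 6 measured genes of the mevalonate steps were lower in CSD pups and none was called. Hmgcs1, which condenses acetyl-CoA with acetoacetyl-CoA and whose upstream bases hold the sterol regulatory element letters, was between 10.62 and 10.98 in CSD pups (median 10.68) and between 10.77 and 11.21 in VD pups (median 10.92). The CSD minus VD difference was -0.27 ± 0.079 (SE, adjusted p = 0.11), with 6 of 8 CSD pups below the lowest VD pup. Its probes gave -0.35 and -0.19. Mvd, the decarboxylase that yields isopentenyl diphosphate, was between 9.87 and 10.56 in CSD pups (median 10.06) and between 10.21 and 11.22 in VD pups (median 10.63). The log2 fold change of Mvd was -0.52 ± 0.17 (SE, adjusted p = 0.153), and 5 CSD pups lay below every VD pup. Pmvk, the second kinase of the pathway, was between 11.80 and 12.28 in CSD pups (median 11.85) and between 11.88 and 12.42 in VD pups (median 12.18), a log2 fold change of -0.20 ± 0.085 (SE, adjusted p = 0.273).

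For the other mevalonate genes the groups overlapped over most of their range. Mvk, mevalonate kinase, was between 10.37 and 10.998 in CSD pups (median 10.61) and between 10.45 and 11.49 in VD pups (median 10.95), and its log2 fold change was -0.27 ± 0.14 (SE, adjusted p = 0.424). Idi1, which interconverts the isoprenoid building blocks, was between 12.54 and 13.22 in CSD pups (median 12.87) and between 12.51 and 13.62 in VD pups (median 12.99). CSD minus VD was -0.19 ± 0.19 (SE, adjusted p = 0.707), and the 3 VD pups above every CSD pup were those of mother 6. Fdps, which makes farnesyl diphosphate, was between 13.28 and 14.03 in CSD pups (median 13.53) and between 13.38 and 14.28 in VD pups (median 13.93), with a log2 fold change of -0.29 ± 0.15 (SE, adjusted p = 0.388).

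From squalene to cholesterol, 8 of 10 genes were lower in CSD pups and 2 of them were called. Fdft1, squalene synthase and the first step committed to sterols, fell. It was between 11.63 and 12.28 in CSD pups (median 11.79) and between 12.04 and 12.99 in VD pups (median 12.53). The log2 fold change was -0.68 ± 0.15 (SE, adjusted p = 0.0408), a level 37.6% lower in CSD, and the exact two-sided permutation p was 0.000932. Its 2 probes (mm9, chr14:63765457-63765516 and chr14:63765750-63769990, minus strand, the second spanning an intron) agreed, at -0.69 and -0.67. In 6 of 8 CSD pups Fdft1 lay below the lowest VD pup. Sc5d, a late desaturase of the sterol ring, was between 10.32 and 10.54 in CSD pups (median 10.40) and between 10.49 and 10.80 in VD pups (median 10.65). For Sc5d the log2 fold change was -0.24 ± 0.051 (SE, adjusted p = 0.035) and the exact two-sided permutation p was 0.000466. Only CSD pup 3 reached into the VD range. The Sc5d probes (mm9, chr9:42060087-42060146 and chr9:42062857-42062916, minus strand) were unequal, at -0.38 and -0.10, and with only the brighter one the fold change was -0.10 (adjusted p = 0.547).

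The remaining enzymes of this stretch were not called. Sqle, squalene epoxidase, a rate-limiting step, was between 9.31 and 9.61 in CSD pups (median 9.51) and between 9.46 and 10.01 in VD pups (median 9.74), a log2 fold change of -0.26 ± 0.082 (SE, adjusted p = 0.136). Of its 2 probes, 1 was not well above background on any array, and the other alone gave -0.43 (adjusted p = 0.18). Dhcr7, the last reductase, was between 8.88 and 9.35 in CSD pups (median 9.07) and between 9.14 and 9.72 in VD pups (median 9.44), with a log2 fold change of -0.34 ± 0.093 (SE, adjusted p = 0.0863). Its probes went apart (-0.74 and 0.060), and with the brighter probe alone Dhcr7 was called, at -0.75 (adjusted p = 0.0391). Lss, which closes squalene epoxide to lanosterol, was between 9.05 and 9.77 in CSD pups (median 9.35) and between 9.25 and 10.42 in VD pups (median 9.75), a log2 fold change of -0.44 ± 0.20 (SE, adjusted p = 0.312). The 3 probes of Lss gave -0.46, -0.42 and -0.44. Cyp51, the lanosterol demethylase, was between 9.37 and 9.87 in CSD pups (median 9.67) and between 9.60 and 10.32 in VD pups (median 9.89), at -0.30 ± 0.13 (SE, adjusted p = 0.296). CSD and VD pups overlapped in both Lss and Cyp51, with 4 CSD pups below every VD pup in each. Hsd17b7, a sterol ketoreductase, was between 8.52 and 8.90 in CSD pups (median 8.71) and between 8.72 and 9.23 in VD pups (median 8.91), at -0.25 ± 0.078 (SE, adjusted p = 0.128). Nsdhl, a dehydrogenase of the demethylation complex, was between 8.29 and 8.65 in CSD pups (median 8.44) and between 8.49 and 8.80 in VD pups (median 8.66), at -0.19 ± 0.066 (SE, adjusted p = 0.171). The groups overlapped in both. Tm7sf2 (a sterol reductase) and Ebp (a sterol isomerase) were higher in CSD, by 0.049 and 0.061, with 95% confidence intervals of -0.10 to 0.20 and -0.028 to 0.15.

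**Figure D2:**
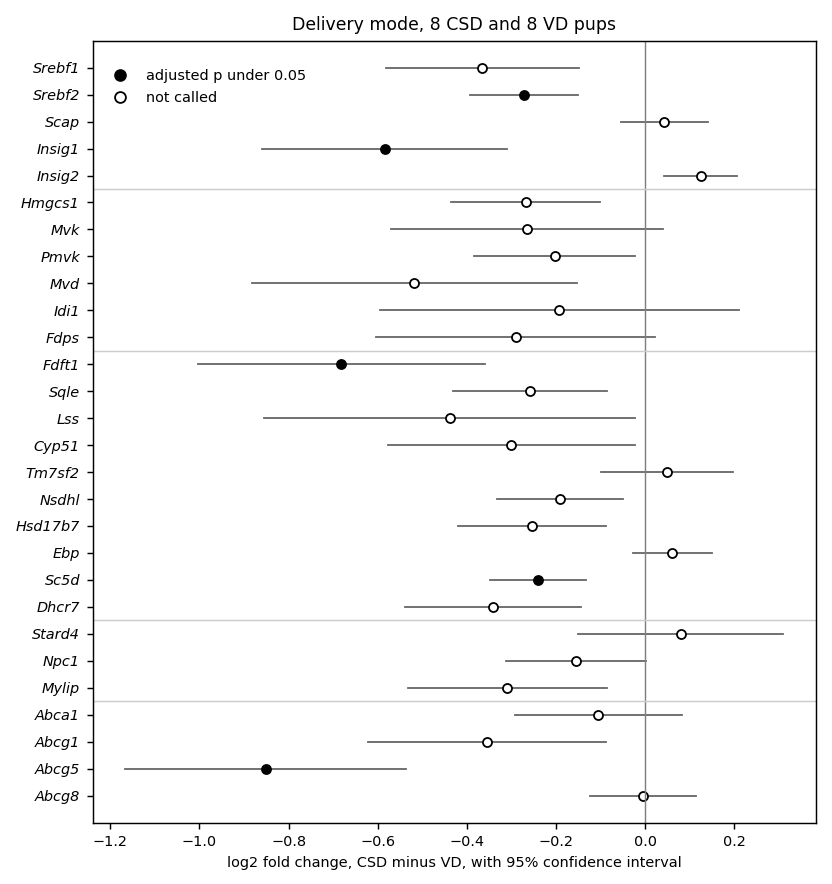
Log2 fold change (x axis, CSD minus VD, adjusted for sex) of 28 members with 95% confidence intervals, filled where called. Npc1l1, not above background, is left out, and the 5 filled points all lie below 0, from -0.24 for Sc5d to -0.85 for Abcg5.

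Uptake and trafficking genes showed no call. Mylip, a ubiquitin ligase that removes lipoprotein receptors, was between 9.91 and 10.65 in CSD pups (median 10.40) and between 10.37 and 10.87 in VD pups (median 10.68), with a log2 fold change of -0.31 ± 0.11 (SE, adjusted p = 0.163). Npc1, which exports cholesterol from lysosomes, was between 7.63 and 8.09 in CSD pups (median 7.95) and between 7.85 and 8.18 in VD pups (median 8.03), at -0.16 ± 0.074 (SE, adjusted p = 0.349). Of the 4 Npc1 probes, 1 was not well above background on any array, and the brightest alone gave -0.29 (adjusted p = 0.0993). In Mylip 4 of 8 CSD pups lay below every VD pup, and in Npc1 it was 3 of 8. Stard4, a sterol carrier, was between 10.31 and 10.90 in CSD pups (median 10.69) and between 10.23 and 10.89 in VD pups (median 10.51), and its log2 fold change of 0.079 ± 0.11 (SE, adjusted p = 0.802) was in the other direction. Npc1l1, the importer of dietary cholesterol in the small intestine, was not well above background on any of the 16 arrays and is given no fold.

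Of the efflux transporters, Abcg5 fell in CSD pups, while the difference in its partner Abcg8 was close to 0. Abcg5 was between 8.57 and 9.25 in CSD pups (median 8.89) and between 9.15 and 10.48 in VD pups (median 9.84). It had a log2 fold change of -0.85 ± 0.15 (SE, adjusted p = 0.0129), a VD level 1.80 times that of CSD, and the exact two-sided permutation p was 0.000311. CSD pup 1, at 9.25, was the only CSD pup above the lowest VD pup, VD pup 5, at 9.15. Both litters of each delivery mode shared the pattern, with means of 8.73 and 9.02 for mothers 3 and 4 and of 9.73 and 9.91 for mothers 5 and 6. Abcg8 was between 8.59 and 9.03 in CSD pups (median 8.87) and between 8.71 and 8.99 in VD pups (median 8.86). Its log2 fold change was -0.0059 ± 0.056 (SE, adjusted p = 0.976) with a 95% confidence interval of -0.12 to 0.11, against -1.17 to -0.54 for Abcg5. Each gene had 1 probe, at chr17:85057604-85057663 for Abcg5 (minus strand) and chr17:85099609-85099668 for Abcg8 (plus strand, mm9).

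Abcg1, which loads cholesterol onto lipoproteins, was between 9.08 and 10.22 in CSD pups (median 10.01) and between 10.15 and 10.60 in VD pups (median 10.33). The difference was -0.36 ± 0.13 (SE, adjusted p = 0.181) on the log2 scale, and CSD pup 2 lay far below every other pup. The exact two-sided permutation test over pups gave p = 0.00124 for Abcg1, which was not called. Abca1, its partner gene in the same task, was between 7.51 and 8.15 over all pups, with a log2 fold change of -0.11 ± 0.088 (SE, adjusted p = 0.644). Of its 2 probes, 1 was well above background in only 1 of 8 CSD and 3 of 8 VD pups. The brighter Abca1 probe alone gave -0.12 (adjusted p = 0.762).

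**Figure D3:**
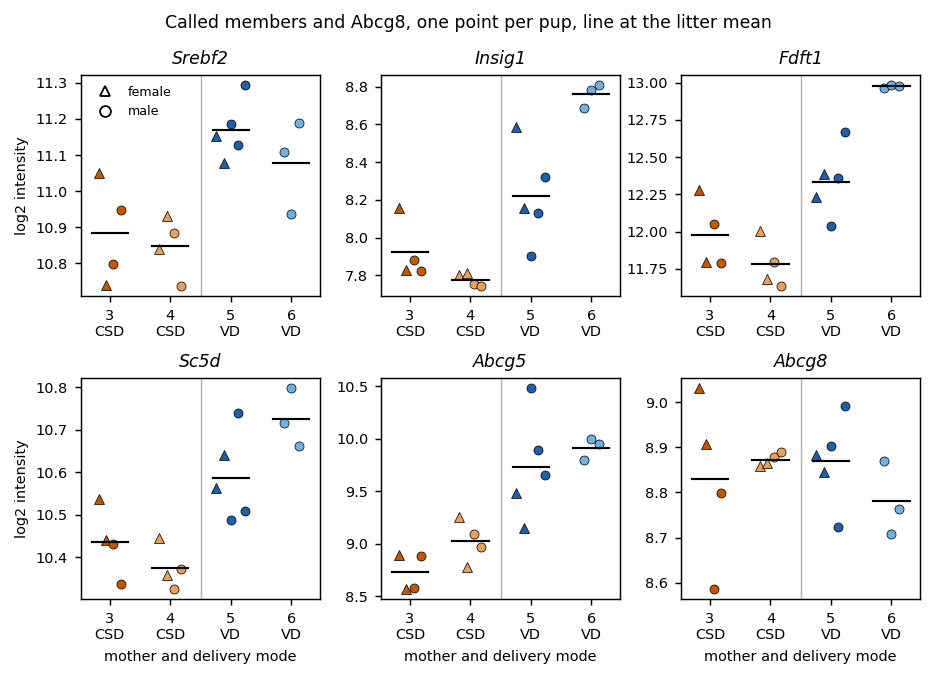
Log2 intensity of the 5 called members and of Abcg8 in each pup, by mother, with triangles for females, circles for males and a line at the litter mean. The CSD litters of mothers 3 and 4 have lower means than both VD litters in the called genes, and Abcg8 shows no such order.

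The litters of the 2 VD mothers also differed from each other in genes of the set. Against mother 5, the litter of mother 6 was higher in 25 of 29 members (limma, with sex in the model), and 6 of them were called: Lss at 0.88 ± 0.17 (SE, adjusted p = 0.0291), Idi1 at 0.87 ± 0.17 (SE, adjusted p = 0.0276), Fdft1 at 0.66 ± 0.14 (SE, adjusted p = 0.0465), Insig1 at 0.60 ± 0.11 (SE, adjusted p = 0.0237), Sqle at 0.35 ± 0.068 (SE, adjusted p = 0.0278) and Hsd17b7 at 0.34 ± 0.066 (SE, adjusted p = 0.0323). Of all genes 0.874% were called between these litters, and 0.564% were called and higher with mother 6. Among the 4 litters, that of mother 6 had the highest mean in 24 of 29 members and in 15 of the 16 measured synthesis enzymes, against 25.1% of all genes. The counts of 25 and 24 of 29 include Npc1l1, which was not well above background on any array. In Idi1 the pups of mother 6 were at 13.61, 13.62 and 13.59 while the other 13 pups lay between 12.51 and 13.22. The 3 pups of mother 6 also lay above every other pup in Lss and in Fdft1. No member of the set was called between the 2 CSD litters, in which 0.0872% of all genes were. The 6 calls depended on single pups: 0 members were called without VD pup 6, 7, 8 or 9 and 1 without VD pup 10.

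**Figure D4:**
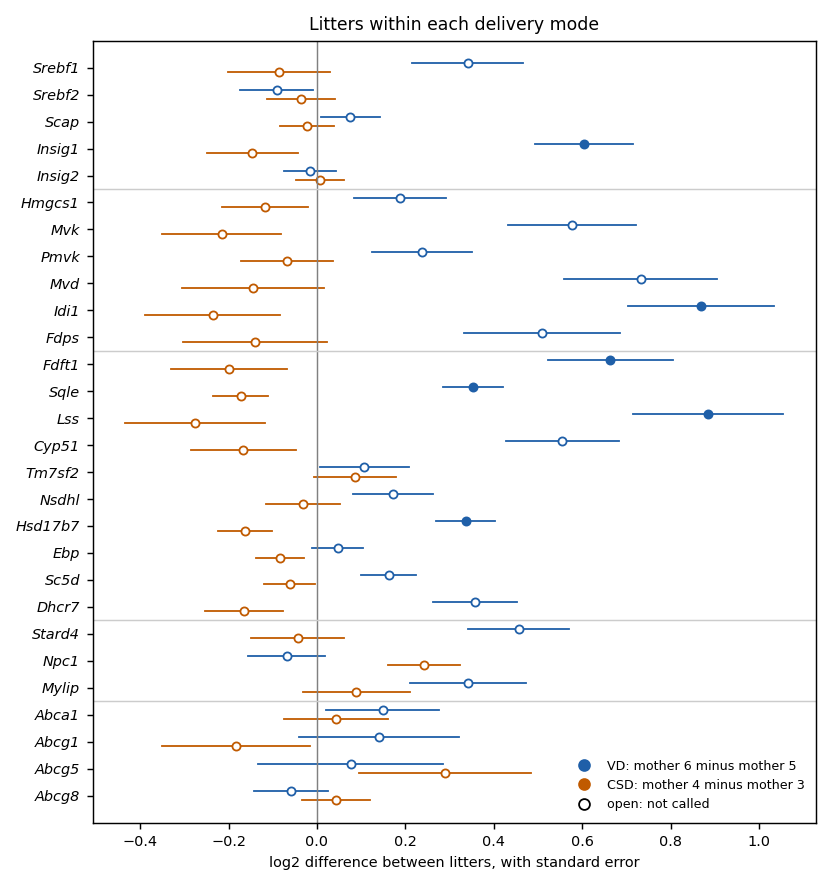
Log2 difference between litters (x axis, with standard errors) of 28 members, blue for mother 6 minus mother 5 (VD) and orange for mother 4 minus mother 3 (CSD), filled where called. The synthesis enzymes lie to the right of 0 in the VD litters, up to 0.88 for Lss, and mostly to the left in the CSD litters.

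Srebf2 and Abcg5, at -0.091 and 0.076 between mothers 6 and 5, were not called there. The delivery difference was also computed without the litter of mother 6. The median of the members then moved from -0.26 to -0.14, and 22 of 29 were lower in CSD. The same 5 members were called, among 6.17% of all genes: Srebf2 at -0.30 (adjusted p = 0.0061), Abcg5 at -0.83 (adjusted p = 0.00977), Insig1 at -0.39 (adjusted p = 0.0162), Fdft1 at -0.46 (adjusted p = 0.0239) and Sc5d at -0.19 (adjusted p = 0.0226). Idi1 turned to 0.094, Lss moved to -0.15 and Mvd to -0.28. Without the litter of mother 5, the median was -0.40 and 12 members were called (0.515% of all genes), among them Lss at -1.11 (adjusted p = 0.0173), Mvd at -1.07 (adjusted p = 0.0178) and Dhcr7 at -0.58 (adjusted p = 0.0331), while Srebf2 was not, at -0.24 (adjusted p = 0.253). Without mother 3 no member was called (0.577% of all genes were), with Srebf2 at -0.29 (adjusted p = 0.0586), Abcg5 at -0.68 (adjusted p = 0.0852), Insig1 at -0.63 (adjusted p = 0.107), Fdft1 at -0.75 (adjusted p = 0.0912) and Sc5d at -0.26 (adjusted p = 0.0821). Without mother 4, with 0.376% of all genes called, Abcg5 was the only called member, at -0.97 (adjusted p = 0.0347), and the other 4 lay at -0.25 (Srebf2), -0.50 (Insig1), -0.55 (Fdft1) and -0.21 (Sc5d). With the 4 litter means as samples, 2 against 2, no gene was called and 11 members were lower at an unadjusted p under 0.05 in limma, against 5.55% of all genes. Within slide 1 and within slide 2, 23 and 27 of 29 members were lower in CSD, with medians of -0.18 and -0.28, and 0 were called in each. At an unadjusted p under 0.05 (limma) 7 members were lower on slide 1 and 16 on slide 2, against 4.12% and 4.73% of all genes.

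Pup by pup, the mean of the 16 synthesis enzymes differed between litters. As a deviation from the mean of all pups (log2), it was 0.37, 0.42 and 0.39 in VD pups 6, 7 and 8 of mother 6, and between -0.17 and 0.13 in the 5 pups of mother 5. Among CSD pups it was close to 0 in pups 3, 8 and 1 (0.038, 0.027 and 0.0058) and between -0.14 and -0.32 in the other 5. CSD pups 3, 8 and 1 were on slide 1, as was CSD pup 7 at -0.32, and the remaining CSD pups were on slide 2. CSD pups and the pups of mother 5 thus overlapped, and the pups of mother 6 lay above both.

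**Figure D5:**
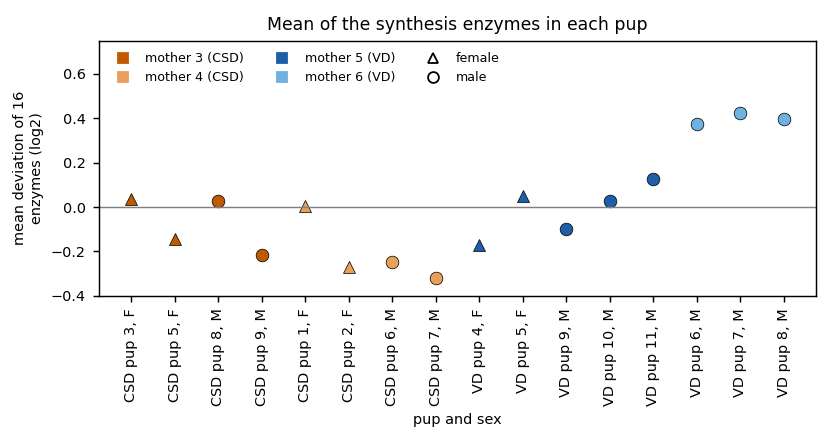
Mean deviation of 16 synthesis enzymes (y axis, log2 intensity minus the mean of the 16 pups) in each pup, coloured by mother. The pups of mother 6 sit between 0.37 and 0.42, above all the others.

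Neither sex nor its interaction with delivery mode gave a called member. For sex, 0.0599% of all genes were called, and the 1 member with an unadjusted p under 0.05 was Abcg1, higher in males by 0.28 (log2, adjusted p = 0.767). In the interaction, 6 members had an unadjusted p under 0.05 (Scap, Mvk, Idi1, Lss, Stard4 and Abcg5), all with a more negative CSD minus VD difference in males. Of all genes 2.68% did so. Abcg5 gave -1.08 in males and -0.44 in females, and Idi1 gave -0.46 and 0.30. There were only 2 VD females, both of mother 5, and 3 of the 6 VD males were of mother 6. Within the litter of mother 5, Abcg5 was at 9.48 and 9.15 in females and at 10.48, 9.89 and 9.65 in males, which did not overlap. In the same litter Idi1 was at 12.51 and 12.85 in females and at 12.57, 12.80 and 13.13 in males, which overlapped.

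With litter means removed, pups still differed in the enzymes together. In the litter of mother 3 the enzyme mean was 0.038 and 0.027 on slide 1 and -0.14 and -0.22 on slide 2. With mother 6 it was 0.42 on slide 1 and 0.37 and 0.39 on slide 2. The slides overlapped within the litters of mothers 4 and 5. The part of the slide in these differences was not tested. Over the 120 pairs of the 16 enzymes, the median Pearson r across the 16 pups was 0.44 (-0.57 to 0.97), and 9 pairs were negative. These values share the arrays and their normalization and are a description. In 7 enzymes r with the mean of the others was at least 0.8, which 0.151% of all genes reached with the enzyme mean. Fdps had 0.93, Mvd 0.89 and Idi1 0.87, whereas Ebp had 0.13, Hmgcs1 0.19 and Dhcr7 0.21. The values of Hmgcs1 and Dhcr7 are means of 2 probes each, a bright and a dim one, which went apart between the VD litters. Mother 6 minus mother 5 was 0.60 and -0.23 for the Hmgcs1 probes and 0.81 and -0.091 for those of Dhcr7. The r of single probes was not computed. Of the regulators, Srebf1 had 0.84, Scap 0.66, Insig2 0.25, Insig1 0.13 and Srebf2 0.098. Stard4 had 0.75, Abcg5 -0.029 and Abca1 -0.55.

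Other genes of sterol metabolism were read from lists, beside all genes, of which 48.3% were lower in CSD and 1.25% were called. Of 8 further sterol synthesis enzymes 7 were lower in CSD pups and 1 was called, Por, the reductase that supplies electrons to Cyp51 and Sqle. Por was between 13.24 and 13.46 in CSD pups (median 13.34) and between 13.60 and 13.76 in VD pups (median 13.67), so that every CSD pup lay below every VD pup. The log2 fold change of Por was -0.34 ± 0.041 (SE, adjusted p = 0.0017). Among 16 genes of SREBP processing and degradation 12 were higher in CSD, and 1 was called, Syvn1, a ubiquitin ligase of the endoplasmic reticulum, at 0.20 ± 0.044 (SE, adjusted p = 0.0408). Among 16 genes of the isoprenoid branch 13 were higher, and 1 was called, Pdss2, a subunit of the enzyme that builds the tail of coenzyme Q, at 0.20 ± 0.044 (SE, adjusted p = 0.0428). Both Syvn1 and Pdss2 had overlapping groups. None of these 3 lists held a call on slide 1, on slide 2, in males or without mother 5, and on slide 2 and in males no gene at all was called. Without mother 4 the lists of Syvn1 and Pdss2 held none, nor did that of Syvn1 without mother 3.

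In 3 more lists no gene was called with all pups. Without mother 6, 1, 2 and 1 genes were called in them, in the order given here, while the first held 1 call without mother 5 and the second 1 without mother 3. The share of all genes called was 6.17% without mother 6, 0.515% without mother 5 and 0.577% without mother 3. Of 19 fatty acid synthesis targets of SREBP1, 14 were lower in CSD (median -0.058), with the smallest p for Scd2, a stearoyl-CoA desaturase, at -0.45 ± 0.12 (SE, adjusted p = 0.0818), and Mid1ip1, an activator of acetyl-CoA carboxylase, at -0.27 ± 0.087 (SE, adjusted p = 0.138). Of 24 genes of sterol uptake, storage and transfer, 15 were lower (median -0.029). The smallest p was that of Lcat, which esterifies cholesterol, but its probe was well above background in only 1 of 8 CSD and 4 of 8 VD pups and no fold is given. The lipoprotein receptor Lrp1 came next, at -0.16 ± 0.043 (SE, adjusted p = 0.0877). Of 17 oxysterol and bile acid genes, 8 were lower (median 0.020), with the smallest p for Ch25h, the cholesterol 25-hydroxylase, at -0.52 ± 0.13 (SE, adjusted p = 0.0686), and Nr1h4, the bile acid receptor FXR, higher at 0.22 ± 0.074 (SE, adjusted p = 0.162). The medians of these 3 lists lay nearer to that of all genes than the median of the members did.

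The tissue carried the markers of colonic epithelium. All 14 were above background, 12 were higher in CSD and 0 were called, and their summed intensity was 90.7% to 116% of the VD mean in CSD pups (median 100.1%), with Krt8 the brightest. Of the 10 small intestine markers, Sis, Lct, Fabp1, Apoa1 and Apoa4 were not well above background on any array. Over the whole list 6 were higher in CSD, 4 were lower and 0 were called, with a median log2 fold change of 0.010. The summed intensity, in which the brightest genes weigh most, was 104% to 271% of the VD mean in CSD pups (median 147%, Fabp2 brightest). Markers of some other cells were lower in CSD together with the cholesterol genes. All 8 T cell markers were lower, with a sum of 47.3% to 93.5% of the VD mean (median 61.2%, Cd2 brightest), and so were 7 of 8 B and plasma cell markers, at 20.7% to 110.2% (median 46.9%, Jchain brightest). The same held for 7 of 10 macrophage markers (median sum 83.1%, Lyz2 brightest), 9 of 9 adipocyte markers (59.8%, Cfd brightest) and 7 of 7 endothelial markers (83.6%, Cldn5 brightest). It also held for 5 of 6 erythroid markers (56.0%, Hba-a1 brightest), 8 of 9 smooth muscle markers (85.3%, Tagln brightest) and 5 of 7 fibroblast markers (87.4%, Dcn brightest). No gene of these lists was called. Of 10 goblet cell markers 9 were higher and Ang4 was called. Of 10 proliferating crypt cell markers 8 were lower and 0 were called, with a median sum of 100.8% (Pcna brightest). Between the VD litters, the synthesis enzymes had a median sum of 120.2% with mother 6 and 90.3% with mother 5, and 16 of 16 were higher with mother 6 in the model (median 0.36). The marker lists went different ways, and their sums and their medians in the model did not always have the same direction. With mother 6 and mother 5, in this order, T cell markers summed to 80.4% and 99.1% although 7 of 8 were higher in the model (median 0.20), and B and plasma cell markers to 101.7% and 82.3% although 1 of 8 was higher (median -0.28). Adipocyte markers summed to 79.3% and 68.7% (7 of 9 higher, median 0.21), small intestine markers to 117.5% and 86.6% (8 of 10 higher, median 0.055) and erythroid markers to 110.2% and 76.7% (4 of 6 higher, median 0.014). Exocrine pancreas markers, of which 3 of 6 were not well above background on any array and Cela1 was the brightest, summed to 127.1% and 88.4% with 3 of 6 higher (median -0.0032). Macrophage markers summed to 95.8% and 99.3% (7 of 10 higher, median 0.073) and endothelial markers to 95.6% and 99.1% (2 of 7 higher, median -0.054). Smooth muscle markers summed to 92.8% and 95.5% (3 of 9 higher, median -0.063) and fibroblast markers to 97.2% and 97.6% (1 of 7 higher, median -0.13). Between these litters 1 fibroblast marker was called, lower with mother 6. Proliferating crypt cell markers summed to 92.1% and 105.6% (2 of 10 higher, median -0.19). Colonic epithelium markers summed to 96.3% and 103.6% (5 of 14 higher, median -0.13) and goblet cell markers to 101.8% and 94.7% (7 of 10 higher, median 0.11). The part of these cells in the delivery and litter differences was not tested.

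The 5 calls differed in how they held under 42 alternative settings. Abcg5 was called in 35 of 42, Srebf2 in 20 of 42, Insig1 in 20 of 42, Sc5d in 18 of 42 and Fdft1 in 16 of 42, and none changed direction in any of them. The settings include the same fit with the threshold raised to 0.1, in which these 5 calls hold by definition. Leaving out single pups, Abcg5 was called in 16 of 16 refits, Srebf2 in 10, Insig1 and Sc5d in 6 each and Fdft1 in 4. In these refits the adjusted p of Abcg5 (limma) ran from 0.00805 to 0.0387. Srebf2 lost its call without CSD pup 1, 5, 6, 7 or 8 or VD pup 4, with fold changes of -0.25 to -0.28 and adjusted p up to 0.085 (limma). Insig1 lost it without any 1 CSD pup but pup 3 and without VD pup 4, 6 or 11, at -0.55 to -0.59 and adjusted p up to 0.121 (limma). Sc5d lost it without CSD pup 1, 2, 5, 6, 7 or 9 or VD pup 4, 5, 6 or 10, at -0.23 to -0.26 and adjusted p up to 0.0736 (limma). Fdft1 kept it without CSD pup 3 or VD pup 7, 9 or 10, and without any other pup it was at -0.63 to -0.75 with adjusted p up to 0.095 (limma).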

How the data were processed

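Colon RNA of 16 pups was measured on 1-colour arrays (design 074809 in every scanner header, whereas the methods name another design). The authors deposited the scanner output (Agilent Feature Extraction 12.0.3.2), with a mean intensity, a median background intensity, a scanner-corrected intensity and quality flags per spot, and a gene matrix in log2 units, which the authors made with limma 3.38 per the labels (correction, log2 scale, quantile normalization, filter on dim probes, mean per gene). The matrix served as an alternative.

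From the scanner output, normexp correction (offset 50) of all 62976 spots per array, removal of control and outlier spots, log2, quantile normalization, the mean per probe, the 5% quantile filter (in at least 4 arrays, 56366 of 56605 probes) and the mean per gene name gave 36711 genes, of which 218 lacked a value on some array. Models were fitted with limma 3.58.1 in R 4.3.3 over all genes: fixed terms for delivery mode and for sex, and a random term for the mother of birth (duplicateCorrelation, consensus correlation 0.015), with Benjamini-Hochberg adjustment over all genes, and a gene was called at an adjusted p under 0.05. The litter contrasts had the mother as a fixed effect. Permutation tests used all 12870 assignments of 8 of 16 pups and ignore litter and sex. The scripts were tested on simulated data. Apart from genes shifted in a single litter, the simulated pups of a litter shared no litter effect. How the delivery calls behave under correlation within litters was not tested there.

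All 30 genes are named. From the other lists of sterol metabolism the genes called for delivery mode with all pups are named, otherwise the 2 with the smallest p. From the marker lists reported, the brightest gene or the gene called for delivery mode is named. Genes of these lists called only between litters or in other settings are not named. Some genes outside the set are not reported here. The members and lists were chosen with earlier results of these data known. Well above background is the scanner's mark, and 58.7% to 64.9% of spots on an array had it. Pups of a litter are not independent, and the numbers of arrays and litters limit the precision. Other ages were not analysed here.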

Additional observations from a re-analysis of the deposited data

Results flagged for a closer look

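Of the 56 sets of 8 pups (28 members in each delivery mode), 2 held a pup far from the others by Dixon's criterion at the 95% level (gap to the nearest pup over the range), and chance alone marks about 1 in 20 such sets. In Insig1, CSD pup 3 was the highest CSD pup at 8.16, with the next at 7.88. In Abcg1, CSD pup 2 was the lowest CSD pup at 9.08, with the next at 9.81. Without CSD pup 3 Insig1 was still called, and Abcg1 was called neither with nor without CSD pup 2.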

How the results depend on the processing

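Of 1176 refitted fold changes of single members, 1044 kept their direction and their side of the threshold, 101 lost a call, 12 gained one and 19 changed sign. All members with a sign change were uncalled: Abcg8 (0.016 without sex in the model, 0.012 on slide 1, 0.027 with litter means as samples, 0.032 without mother 3, 0.0077 without mother 5, and -0.022 to 0.039 over the refits without 1 pup), Stard4 (-0.065 on slide 2, -0.074 in males, -0.27 without mother 5), Tm7sf2 (-0.0051, -0.033 and -0.061 in the same settings), Scap (-0.032, -0.030 and -0.043) and Idi1 (0.094 without mother 6). Depending on the setting, 22 to 27 of 29 members were lower in CSD. In the deposited matrix, and with only probes well above background in a whole group, 28 members were measured and 23 were lower. Against 460 genes and 5 members called between delivery modes, the counts were 243 and 2 with a normexp offset of 16, 102 and 1 with an offset of 0, 177 and 1 with the scanner-corrected intensity, 164 and 1 with that intensity minus the 75th percentile, 170 and 2 in the deposited matrix, 84 and 0 with a mother correlation of 0.1, and 11 and 0 with 0.2. With array medians set equal 2 members were called, among 433 genes. Without sex 992 genes were called, and 1126 at an adjusted p under 0.1. On slide 1 there were 11 and 0, and 0 and 0 on slide 2, in males (limma, 19 members lower at an unadjusted p under 0.05, against 4.6% of all genes) and with litter means. Without mother 3 there were 212 and 0, without mother 4 138 and 1, without mother 5 189 and 12 and without mother 6 2265 genes. The replicate block, with the number in the pups' titles in place of the mother, gave 697 genes and the same 5 members. Same-numbered pups correlated by -0.05 to 0.22 (5 pairs). The best match among VD pups was the same-numbered one for CSD pups 5 and 6 and another for CSD pups 7, 8 and 9. Whether the numbers pair the pups was not tested. Leaving out 1 pup gave 145 to 617 genes and 1 to 5 members for delivery mode (23 to 24 members lower), 17 to 28 and 0 for sex, 1 to 127 and 0 for delivery by sex, 23 to 44 and 0 for the CSD litters, and 77 to 370 and 0 to 8 for the VD litters, where 25 to 26 members were higher with mother 6. With the scanner-corrected intensity, the VD litters gave 147 and 0 and delivery by sex gave 5 genes. The cause of these changes was not tested. Differences near the background of the arrays are compressed and were not resolved here.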

Other observations

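Outside the set, the genes whose values followed the mean of the synthesis enzymes most closely over the 16 pups, with litter means removed, included 3 array names without a common gene symbol, NAP002856-002 (r = 0.93), ENSMUST00000177157 (0.93) and ENSMUST00000221823 (0.92), as well as AA986860 (0.92), Scd2 (0.86) and Mmab (0.84), a gene of vitamin B12 metabolism that lies beside Mvk. These genes were picked by their values and carry no test.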
